A study of Mus musculus with 4 samples.

Results

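The S-phase and mitotic genes described here were 41 genes of the cell cycle, listed by their role in it: 19 S-phase members, from Mcm2 to Hells, and 22 G2/M members, from Mki67 to Cdca8. They were matched to the symbol column of each count matrix, and 41 of 41 were found among 31053 genes. Cells copy their DNA in S phase and then pass through a gap into mitosis, and each step draws on its own set of proteins. Before S phase, the helicase subunits are loaded on origins. During it, polymerases travel with a sliding clamp and use up deoxynucleotides, and towards mitosis cyclins, kinases and spindle proteins accumulate until the anaphase-promoting complex destroys many of them. Transcripts of the S-phase genes rise at the start of DNA copying and those of the G2/M genes later. The balance of the 2 sets over many cells also takes in cells with few member UMIs, so it does not show by itself where the cycling cells stand. In the thymus, medullary thymic epithelial cells (mTECs) with Aire form a compartment with much turnover, next to Ccl21a-expressing mTECs, cortical cells (cTECs) and tuft-like and other specialised mTECs.

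Thymic epithelial cells of 6-week-old C57BL/6 mice were profiled by droplet single-cell RNA sequencing. They had been isolated as EpCAM-positive and CD45-negative cells, a selection meant to leave out thymocytes. WT-Control mice were wild type and received control IgG, and WT-RANKL-Ab mice were wild type and received an antibody that neutralises RANKL, a cytokine that mTECs depend on. Cd40-/- Control and Cd40-/- RANKL-Ab mice, labelled CD40KO, lacked Cd40, a receptor of the same signalling family, and received the same IgG or antibody. IgG or antibody was given at 5 mg/kg under the skin, at 4 weeks of age, which was 2 weeks before the cells were taken. Each condition was 1 library of cells pooled from 3 mice, so there is no replicate check, and every interval here covers counting error only. The Cd40 deletion is carried by all cells of the animal, so thymocytes and stroma lacked it too. Per the study's methods the wild-type mice were purchased, so genotype and source cannot be told apart.

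After filtering, 10218 cells were kept in WT-Control, 7164 in WT-RANKL-Ab, 8591 for the Cd40-/- Control library and 2082 for Cd40-/- RANKL-Ab. These cells held 95277834, 48640841, 66295255 and 19153685 UMIs (unique molecular identifiers, 1 per captured RNA molecule). The median per cell was 7621.5, 6086, 6267 and 7531.5 UMIs. Levels are given as UMIs per 1000000 UMIs of the same cells (CPM), with exact Poisson intervals. Log2 ratios of levels have exact conditional binomial intervals and shares have Clopper-Pearson intervals, all at 95%.

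Cd40 itself made up 110.0 CPM in WT-Control against 28.8 in WT-RANKL-Ab, with 5.75 in Cd40-/- Control against 4.75 in Cd40-/- RANKL-Ab. It was lowest in the 2 Cd40-/- libraries and also lower with the antibody in wild type. The files do not say which part of the gene was deleted, and tags at its 3′ end that lie outside that part check nothing. Aire, in cells outside the thymocyte gates, stood at 336, 37.7, 315 and 3.33 CPM in the same order, so it was low in both antibody libraries.

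Libraries shared cell barcodes. The pair of Cd40-/- libraries shared 210 barcodes, more than any other pair (18 to 125). Of the 205 that passed the filters in both, 182 had at least 10-fold more UMIs in Cd40-/- RANKL-Ab, with medians of 25079 UMIs there and 701 UMIs in Cd40-/- Control. Removing the copy with fewer UMIs changed 0 of 28 main values beyond the counting interval. The doublet caller Scrublet marked 0, 1, 1 and 3 cells, which is under 0.5% of each library, so it has not worked here and doublets remain.

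Cells were placed in classes by marker genes, and the classes are called "-like" since they rest on a few genes. A gate is a minimum summed marker level per 10000 UMIs, which was 60 for the Ccl21a-high mTEC markers, 8 for the Aire+ mTEC markers, 100 for cTEC, 10 for TEC progenitor and 15 for tuft and for thymocyte markers. Cells classed neither as thymocyte-like nor as past the thymocyte and cTEC gates together are called cells outside the thymocyte gates below. They numbered 10105, 6765, 7788 and 1782. A cell past the thymocyte gate stays among them if its markers stood higher over another gate than cTEC, so mixtures with thymocytes can remain. The 5 epithelial markers (Epcam, Krt8, Krt18, Foxn1 and Cdh1) were all detected there and summed to 4044, 5277, 3955 and 6735 CPM. At least 1 UMI of them was found in 98.5%, 98.6%, 97.8% and 99.5% of these cells. In thymocyte-like cells the same markers summed to 1646, 787, 732 and 509 CPM, with at least 1 UMI in 74.1%, 47.1%, 48.0% and 53.1% of cells, so 1 UMI does not show what a cell is.

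Cells with thymocyte markers were present in spite of the selection for CD45-negative cells, and they held many member UMIs. In thymocyte-like cells (81, 238, 394 and 196 cells) the S-phase members summed to 1529, 4114, 3166 and 3099 CPM and the G2/M members to 2547, 4544, 5014 and 3602 CPM. Cells past the thymocyte gate and the cTEC gate together (32, 161, 409 and 104 cells), which are not named as a type, had 1694, 1753, 1398 and 1090.3 CPM of S-phase members and 2124, 2561, 2081 and 1824 CPM of G2/M members. These levels were above those of Ccl21a-high mTEC-like, cTEC-like, TEC progenitor-like and tuft-like cells of the same library. The 2 kinds of cells took in most G2/M UMIs of Cd40-/- RANKL-Ab. The thymocyte-like cells held 1.73%, 19.5%, 8.36% and 32.5% of each library's G2/M UMIs, and the cells past both gates held 2.57%, 32.0%, 14.1% and 53.0%. Over all cells, the G2/M ratios to WT-Control were −0.65 for WT-RANKL-Ab and −0.62 for Cd40-/- RANKL-Ab on the log2 scale, and they were −1.70 and −2.75 without any cell that holds a thymocyte marker UMI. The S-phase ratios moved in the same way, from −0.01 and 0.01 to −0.63 and −0.87. The results below are therefore for cells outside the thymocyte gates.

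Even there, thymocyte markers did not vanish. The 11 markers (Cd3e, Cd3d, Cd3g, Lck, Cd8a, Cd8b1, Cd4, Rag1, Ptcra, Cd2 and Trbc2) were all detected and summed to 46.4, 72.3, 64.1 and 87.9 CPM. Trbc2 had the most UMIs among them, at 17.1, 45.5, 28.3 and 45.9 CPM, and 18.2%, 22.9%, 21.0% and 32.7% of cells held at least 1 UMI of the list. Their part in the results below was not tested beyond the alternative that leaves those cells out.

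The S-phase members summed to 523 CPM in WT-Control (518 to 528), 363 in WT-RANKL-Ab (358 to 369), 682 in Cd40-/- Control (675 to 689) and 289 in Cd40-/- RANKL-Ab (280.3 to 297). The G2/M members summed to 781 CPM (775 to 786), 272 (268 to 277), 1104 (1095 to 1112) and 94.9 (90.1 to 99.9). Both sets were highest in Cd40-/- Control, lower in the 2 antibody libraries and lowest in Cd40-/- RANKL-Ab, and the G2/M set spanned a wider range. Among all member UMIs, the S-phase share (phase balance) was 40.1% in WT-Control (39.8 to 40.4), 57.1% in WT-RANKL-Ab (56.6 to 57.7), 38.2% in Cd40-/- Control (37.9 to 38.5) and 75.3% in Cd40-/- RANKL-Ab (74.1 to 76.4). Over all these cells, the G2/M members thus held the larger share in the 2 control libraries and the smaller share in the 2 antibody libraries. Within the member-high cells defined below, the S-phase shares lay close together, at 30.4%, 28.6%, 31.4% and 29.5%. In the remaining cells they were 63.6%, 85.0%, 63.4% and 88.7%. Those cells were chosen by the members, so this is a description. UMIs of 1 cell are not independent, and 5 cells held 59.2% of the 1455 G2/M UMIs of Cd40-/- RANKL-Ab, which these intervals do not cover.

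**Figure D1:**
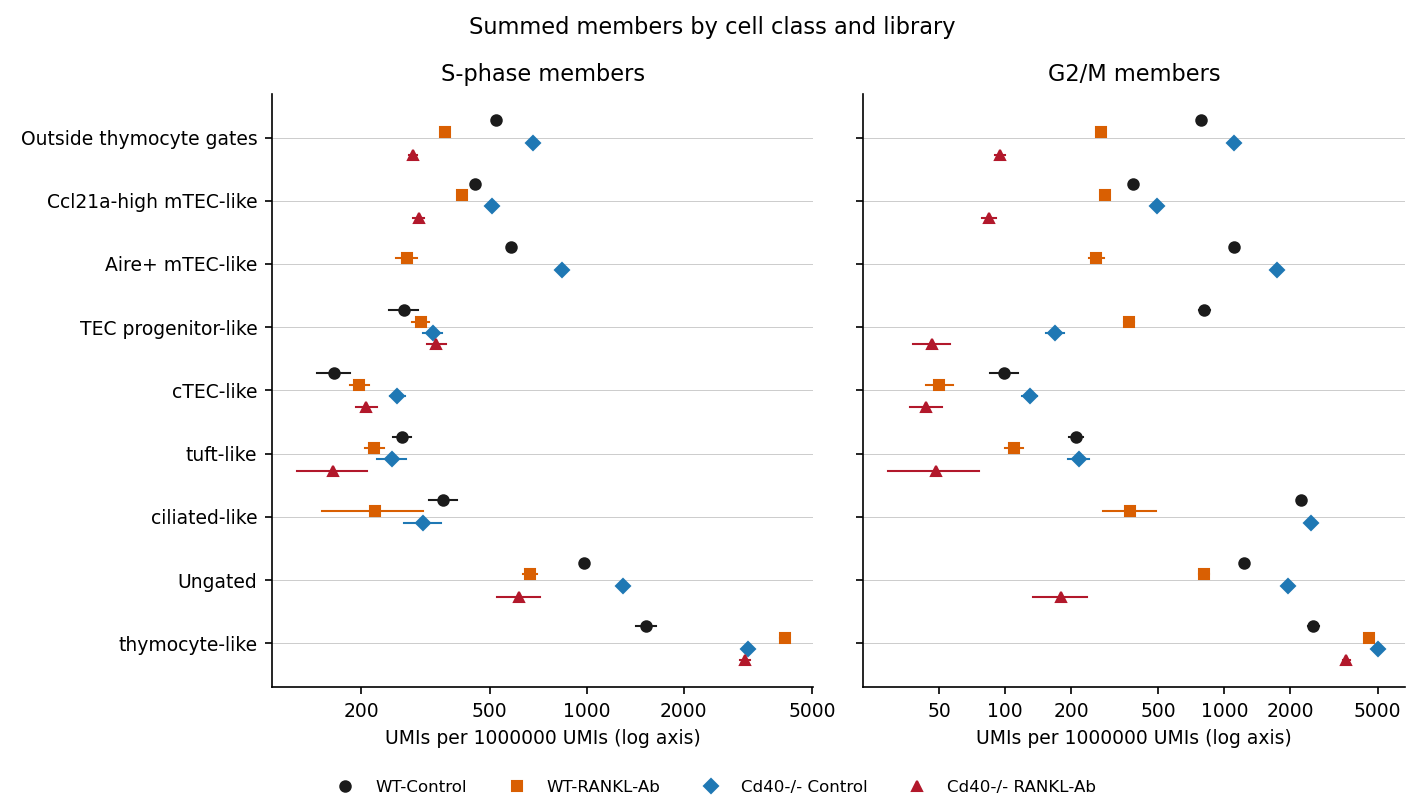
Summed level of the S-phase members (left) and the G2/M members (right) in UMIs per 1000000 UMIs on a log axis, by cell class, with 1 point per library and lines for the 95% exact Poisson interval. Cd40-/- RANKL-Ab is not drawn for Aire+ mTEC-like (5 cells) and ciliated-like cells (1 cell); the G2/M levels of the 4 libraries lie further apart than the S-phase levels in cells outside the thymocyte gates (94.9 to 1104 against 289 to 682).

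The comparison of WT-RANKL-Ab to WT-Control asks how the members differ 2 weeks after RANKL was blocked. In cells outside the thymocyte gates the G2/M members were 2.86-fold lower with the antibody (log2 −1.52, −1.55 to −1.49) and the S-phase members 1.44-fold lower (−0.53, −0.55 to −0.50). More than 2-fold lower were 19 of 22 G2/M members and 5 of 19 S-phase members (Tyms, Rrm2, Uhrf1, Pclaf and Hells), while 14.2% of all genes tested were. For such counts, 1 CPM was added to each level and a gene needed 20 UMIs in the 2 libraries together. Cdk1 had the lowest G2/M ratio (log2 −2.08) and Cenpf the highest (−0.81), and among S-phase members Pclaf was lowest (−1.92) and Mcm7 highest (0.32). The median was −1.45 over the G2/M members and −0.55 over the S-phase members, against −0.03 over all genes tested. With 10 CPM added, the 24 members past 2-fold became 8.

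The libraries differed in the mix of classes. Aire+ mTEC-like cells were 30.6% of the cells in WT-Control against 6.62% in WT-RANKL-Ab, and 23.2% of those in Cd40-/- Control against 0.240% in Cd40-/- RANKL-Ab. They held 55.7%, 2.57%, 43.8% and 3.76% of each library's G2/M UMIs, so in the 2 control libraries they were the largest single source. Over only the 4 classes with at least 50 cells in every library (Ccl21a-high mTEC-like, cTEC-like, TEC progenitor-like and tuft-like), the G2/M members stood at 366, 250.4, 365 and 68.6 CPM, with log2 ratios to WT-Control of −0.55, 0.00 and −2.42. With the class shares of WT-Control in these 4 classes they stood at 366, 257, 430.1 and 76.8 CPM, with ratios of −0.51, 0.23 and −2.25. For WT-RANKL-Ab, leaving out the other classes thus moved the ratio from −1.52 to −0.55, and the class shares then moved it little. Among the classes left out, Aire+ mTEC-like cells themselves differed by −2.09. The S-phase ratios were −0.19, 0.05 and −0.53 over the 4 classes and −0.12, 0.17 and −0.53 with the class shares.

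The comparison of Cd40-/- Control to WT-Control asks what the loss of Cd40 alone goes with. Here both sets were higher: the S-phase members 1.30-fold (log2 0.38, 0.36 to 0.40) and the G2/M members 1.41-fold (0.50, 0.48 to 0.51). Higher without Cd40 were 18 of 19 S-phase members, all but Gins2, and 22 of 22 G2/M members, beside 58.3% of all genes tested. More than 2-fold higher were 0 of 19 S-phase members and 1 of 22 G2/M members, against 1.40% of all genes tested. That member was Mki67, the proliferation antigen that coats mitotic chromosomes, at 36.7 CPM in WT-Control against 16.7 in WT-RANKL-Ab, with 85.9 in Cd40-/- Control against 6.52 in Cd40-/- RANKL-Ab. It was highest in Cd40-/- Control, with a log2 ratio of 1.23 (1.16 to 1.29). The median ratio was 0.38 over the G2/M members, 0.32 over the S-phase members and 0.07 over all genes tested.

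The comparisons of Cd40-/- RANKL-Ab ask how the members stand when Cd40 is missing and RANKL is blocked. Against WT-Control the G2/M members were 8.22-fold lower (log2 −3.04, −3.12 to −2.97) and the S-phase members 1.81-fold lower (−0.86, −0.90 to −0.81). More than 2-fold lower were 22 of 22 G2/M members and 8 of 19 S-phase members (Mcm5, Tyms, Rrm2, Cdc45, Uhrf1, Ung, Pclaf and Hells), and 20% of all genes tested. The median log2 ratio was −2.69 for the G2/M members and −0.90 for the S-phase members, and −0.13 over all genes. Against Cd40-/- Control the G2/M members were 11.6-fold lower (−3.54, −3.62 to −3.46), with 22 of 22 past 2-fold, and the S-phase members differed by −1.24 (−1.29 to −1.20), with 11 of 19 past 2-fold, beside 20.3% of all genes. Against WT-RANKL-Ab the values were −1.52 (−1.60 to −1.44) with 18 of 22 and −0.33 (−0.38 to −0.28) with 2 of 19 (Uhrf1 and Pclaf), beside 8.41% of all genes. All these comparisons share libraries, and those of Cd40-/- RANKL-Ab rest on its 1782 cells.

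**Figure D2:**
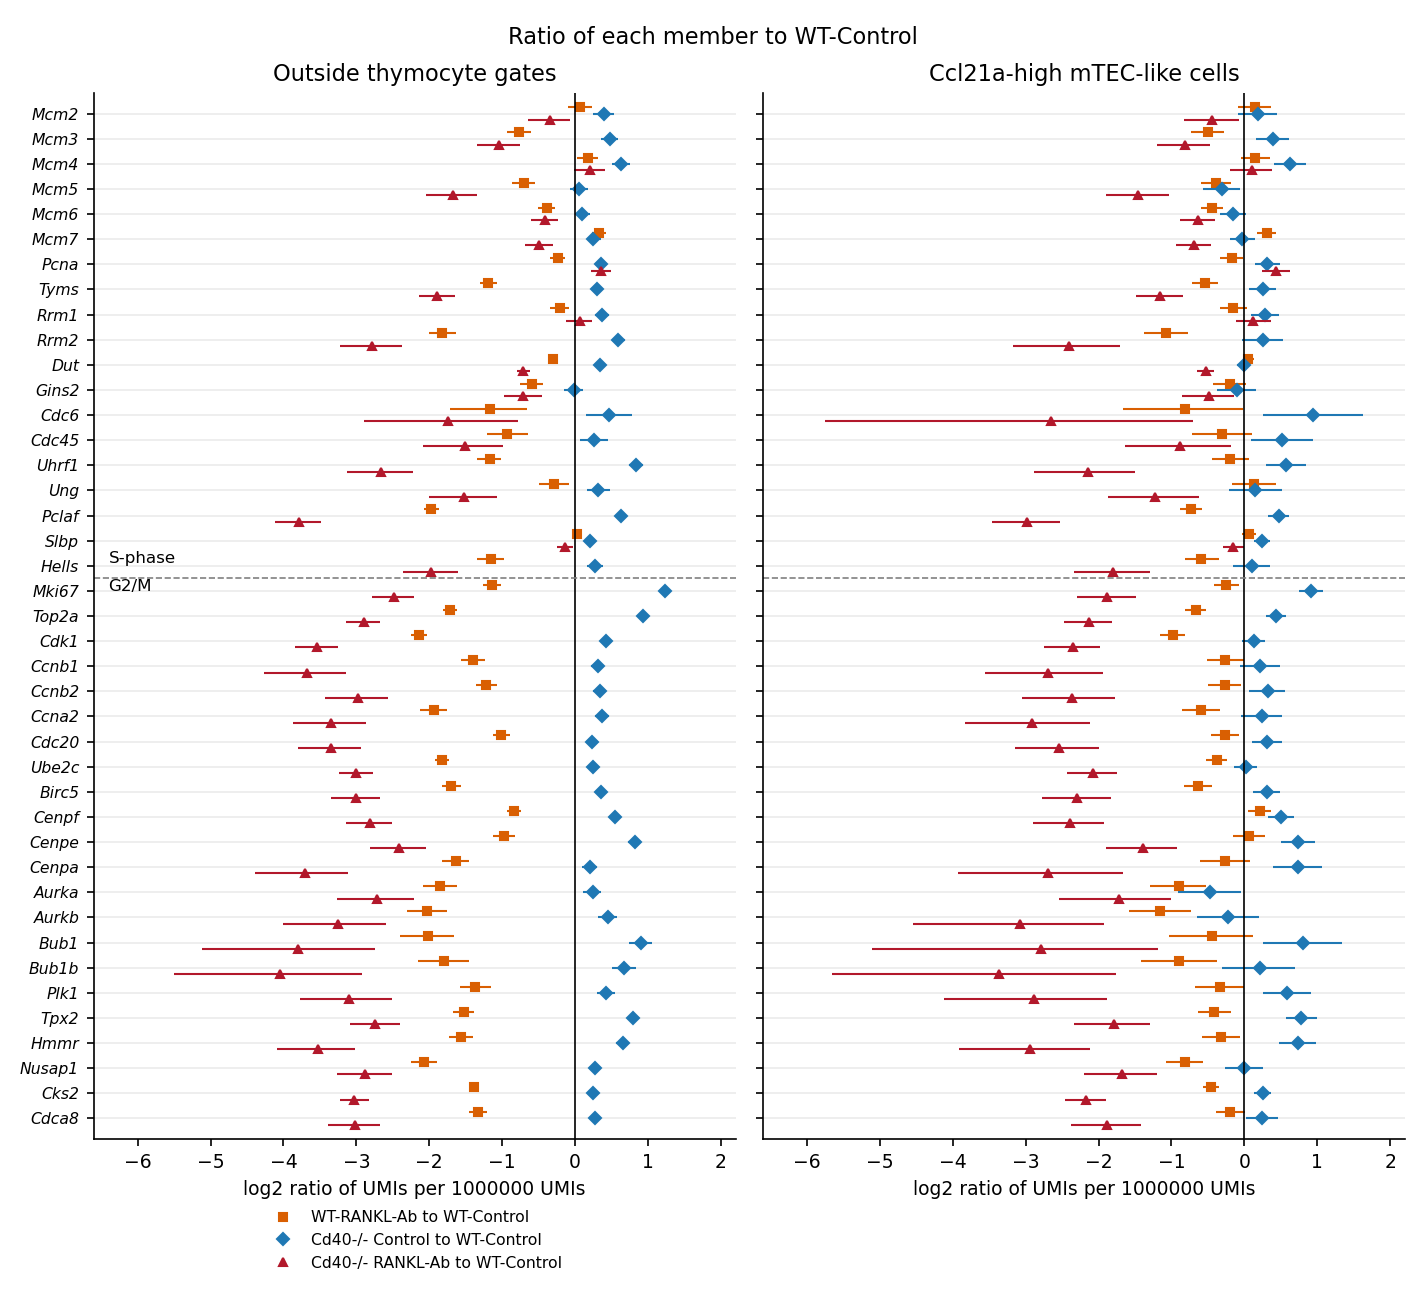
Log2 ratio of the level of each member in the 3 other libraries to WT-Control, in cells outside the thymocyte gates (left) and in Ccl21a-high mTEC-like cells (right), with 95% exact conditional binomial intervals and no CPM added; the dashed line parts the S-phase members above from the G2/M members. All 22 G2/M members lie below 0 for Cd40-/- RANKL-Ab in both panels, whereas Pcna, Mcm4 and Rrm1 of the S-phase members lie above it.

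Origin licensing and the helicase have 9 members. Mcm2 to Mcm7 form the ring that unwinds DNA, Cdc6 loads it, and Cdc45 and Gins2 complete the active helicase. Together they summed to 119.6 CPM in WT-Control against 102 in WT-RANKL-Ab, with 143 in Cd40-/- Control against 77.9 in Cd40-/- RANKL-Ab, in cells outside the thymocyte gates. This was a narrow range, with log2 ratios to WT-Control of −0.24, 0.26 and −0.62. Within the ring the members differed: Mcm5 stood at 15.5, 9.49, 16.1 and 4.83 CPM, with a ratio of −1.68 (−2.04 to −1.34) in Cd40-/- RANKL-Ab. Mcm4 stood at 11.9, 13.4, 18.4 and 13.6 CPM and was no lower there than in WT-Control (0.20, −0.02 to 0.41). Mcm2, Mcm4 and Mcm7 went against the sum of their set in WT-RANKL-Ab, with Mcm7 at 23.2, 29.1, 27.6 and 16.4 CPM and the highest ratio (0.33, 0.23 to 0.43). Gins2, at 14.3, 9.49, 14.1 and 8.74 CPM, was the only S-phase member not higher in Cd40-/- Control (−0.02, −0.15 to 0.11). Cdc6 had the fewest UMIs of the group, at 1.97, 0.877, 2.72 and 0.587 CPM.

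The clamp group has 2 members that moved apart. Pcna, the sliding clamp, stood at 27.6 CPM in WT-Control against 23.3 in WT-RANKL-Ab, with 35.3 in Cd40-/- Control against 35.3 in Cd40-/- RANKL-Ab. It was as high in Cd40-/- RANKL-Ab as in Cd40-/- Control, and above WT-Control in each of them (0.36, 0.22 to 0.49 for Cd40-/- RANKL-Ab). Pclaf, a small protein that binds the clamp, stood at 77.6, 19.8, 120.4 and 5.61 CPM. It was the member of its set that fell furthest in both antibody libraries, with log2 ratios of −1.97 (−2.07 to −1.87) and −3.79 (−4.11 to −3.48), and it was higher in Cd40-/- Control (0.63, 0.59 to 0.68). Pclaf (ENSMUSG00000040204) lies at chr9:65890237-65903266 and Pcna (ENSMUSG00000027342) at chr2:132249162-132253314 in GRCm38.

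Nucleotide supply has 4 members, which summed to 197, 137, 254 and 107 CPM. Tyms, which makes thymidylate, stood at 35.4 CPM in WT-Control against 15.5 in WT-RANKL-Ab, with 43.4 in Cd40-/- Control against 9.52 in Cd40-/- RANKL-Ab. Dut, which clears dUTP, stood at 121, 98.9, 153 and 74.1 CPM. Both were low in the 2 antibody libraries, Tyms more so (−1.19 and −1.89) than Dut (−0.30 and −0.71). The 2 subunits of ribonucleotide reductase differed from each other. Rrm2, the small subunit, stood at 21.5, 6.07, 32.4 and 3.13 CPM, and Rrm1, the large subunit, at 19.2, 16.5, 24.7 and 20 CPM. In Cd40-/- RANKL-Ab the ratio of Rrm2 was −2.78 (−3.22 to −2.37) and that of Rrm1 was 0.06 (−0.12 to 0.23), so Rrm1 was not lower.

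Chromatin and repair members numbered 4 and summed to 101, 81.6, 129 and 63.3 CPM. Slbp, which binds the stem-loop of histone mRNAs, stood at 59.2 CPM in WT-Control against 60.2 in WT-RANKL-Ab, with 68.5 in Cd40-/- Control against 53.7 in Cd40-/- RANKL-Ab. It was nearly level across the libraries, with ratios of 0.02 (−0.04 to 0.09), 0.21 (0.15 to 0.27) and −0.14 (−0.25 to −0.03). Uhrf1, which keeps DNA methylation through replication, stood at 17.8, 7.87, 31.7 and 2.80 CPM and had the largest rise of its set in Cd40-/- Control (0.84, 0.74 to 0.93). Hells, a chromatin remodeller, stood at 16.2, 7.24, 19.5 and 4.11 CPM, and Ung, which removes uracil from DNA, at 7.68, 6.28, 9.61 and 2.67 CPM. Both were lowest in Cd40-/- RANKL-Ab.

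Cyclins and kinases of mitotic entry have 7 members, with sums of 289.6, 95.7, 362 and 31.6 CPM and log2 ratios of −1.60, 0.32 and −3.20. Cdk1, the kinase that drives mitosis, stood at 75.7 CPM in WT-Control against 17.2 in WT-RANKL-Ab, with 102 in Cd40-/- Control against 6.52 in Cd40-/- RANKL-Ab. Cks2, a small subunit of the Cdk1 complex, stood at 117, 44.6, 138 and 14.3 CPM. The order of the libraries was the same for both, and the ratios in Cd40-/- RANKL-Ab were −3.54 (−3.84 to −3.25) and −3.03 (−3.23 to −2.83). The cyclins Ccnb1, Ccnb2 and Ccna2 had 23.4, 23.7 and 23.3 CPM in WT-Control and 1.83, 3.0 and 2.28 CPM in Cd40-/- RANKL-Ab. The mitotic kinases Plk1 and Aurka had 12.9 and 13.7 CPM in WT-Control and 1.5 and 2.09 CPM in Cd40-/- RANKL-Ab. Cdk1 (ENSMUSG00000019942) lies at chr10:69335146-69352938 in GRCm38.

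The anaphase-promoting complex is represented by 2 members, its activator Cdc20 and its ubiquitin-conjugating enzyme Ube2c. Ube2c stood at 80.4 CPM in WT-Control against 22.7 in WT-RANKL-Ab, with 95 in Cd40-/- Control against 10 in Cd40-/- RANKL-Ab, and Cdc20 at 31.3, 15.5, 36.6 and 3.07 CPM. Both were low with the antibody in each genotype, Ube2c with ratios of −1.82 (−1.92 to −1.73) and −3.0 (−3.24 to −2.77).

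The chromosomal passenger complex, which corrects attachments of chromosomes to the spindle, has 3 members with sums of 88.5, 29.8, 111 and 10.8 CPM. Birc5 stood at 41.4 CPM in WT-Control against 12.8 in WT-RANKL-Ab, with 52.9 in Cd40-/- Control against 5.15 in Cd40-/- RANKL-Ab. Cdca8 stood at 35.9, 14.3, 43.2 and 4.44 CPM, and the kinase Aurkb at 11.2, 2.74, 15.3 and 1.17 CPM. The 3 members kept the same order of libraries, with ratios of −3.01, −3.02 and −3.25 in Cd40-/- RANKL-Ab.

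Centromere and checkpoint members numbered 5 and summed to 93.2, 42.9, 139.8 and 11.9 CPM. Cenpf and the motor Cenpe, which act at the kinetochore, differed least in WT-RANKL-Ab of all G2/M members. Cenpf stood at 40.9 CPM in WT-Control against 22.9 in WT-RANKL-Ab, with 59.5 in Cd40-/- Control against 5.80 in Cd40-/- RANKL-Ab, and Cenpe at 20.6, 10.5, 36.5 and 3.85 CPM. Their ratios were −0.84 (−0.94 to −0.74) and −0.97 (−1.12 to −0.83) in WT-RANKL-Ab, and Cenpe had the smallest fall of its set in Cd40-/- RANKL-Ab (−2.16 with 1 CPM added). The centromeric histone Cenpa went from 18.8 CPM in WT-Control to 1.43 in Cd40-/- RANKL-Ab, and the checkpoint kinases Bub1 and Bub1b from 6.37 and 6.49 CPM to 0.457 and 0.391 CPM.

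Spindle and chromosome members numbered 5 and summed to 198, 65.9, 359 and 27.5 CPM. They had the largest rise of the 9 role groups in Cd40-/- Control (log2 0.86), above that of the cyclins and kinases (0.32) and of the anaphase-promoting complex (0.24). Top2a, which untangles DNA, stood at 76.5 CPM in WT-Control against 23.4 in WT-RANKL-Ab, with 146 in Cd40-/- Control against 10.2 in Cd40-/- RANKL-Ab. Tpx2, which brings Aurka to the spindle, stood at 31.8, 11.0, 55.1 and 4.76 CPM. Both were highest in Cd40-/- Control, with ratios of 0.93 (0.89 to 0.98) and 0.80 (0.72 to 0.87). The microtubule-binding members Hmmr and Nusap1 stood at 23.3 and 29.3 CPM in WT-Control and at 2.02 and 3.98 CPM in Cd40-/- RANKL-Ab.

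To see how many cells carried the members, each cell was thinned at random to 2000 UMIs, cells with fewer were left out, and a cell with at least 5 S-phase or at least 5 G2/M UMIs was called member-high. This is a range of a score and not a cell type. Outside the thymocyte gates 761 of 8876 cells were member-high in WT-Control (8.57%, 8.0 to 9.18), 164 of 5674 in WT-RANKL-Ab (2.89%, 2.47 to 3.36), 710 of 6424 in Cd40-/- Control (11.1%, 10.3 to 11.8) and 12 of 1632 in Cd40-/- RANKL-Ab (0.735%, 0.380 to 1.28). The shares were high in the control libraries and low in the antibody libraries, and none of the 4 intervals overlapped. In each library the largest group had G2/M UMIs at the minimum and S-phase UMIs below it: 419 of 761, 89 of 164, 380 of 710 and 6 of 12 cells. Just below the minimum, at 3 or 4 UMIs, stood 319, 163, 276 and 29 cells, and just above it, at 5 or 6, stood 172, 36, 140 and 3 cells. With a minimum of 10 UMIs the shares were 3.91%, 1.60%, 6.02% and 7 of 1632 cells, and with a minimum of 3 they were 12.2%, 5.76%, 15.3% and 2.51%, in the same order of libraries. Without thinning, in cells with at least 2000 UMIs, the percent of cells with high member UMIs outside the thymocyte gates was 24.2% (23.3 to 25.1), 13.3% (12.4 to 14.2), 23.8% (22.7 to 24.8) and 15.4% (13.7 to 17.2). Here the 2 control libraries overlapped, as did the 2 antibody libraries, and cells with S-phase UMIs only were the largest group with the antibody (572 of 752 and 237 of 251). In Ccl21a-high mTEC-like cells these shares were 16.4%, 15.2%, 14.6% and 15.7%, close together. The depth of each cell enters the counts without thinning, and the order of the 4 libraries therefore depends on thinning.

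The member-high cells accounted for the G2/M UMIs far more than for the S-phase UMIs. They held 82.4%, 82.5%, 87.6% and 64.5% of the G2/M UMIs of the cells counted, and 53.9%, 24.9%, 65.0% and 8.84% of the S-phase UMIs. In the remaining cells the S-phase members stood at 283 CPM in WT-Control (279 to 287), 284 in WT-RANKL-Ab (279 to 289.6), 302 in Cd40-/- Control (297 to 307) and 267 in Cd40-/- RANKL-Ab (258 to 275). These 4 levels lay close together, whereas the G2/M members of the same cells stood at 162, 50.1, 174 and 34.0 CPM, low in both antibody libraries. Within the member-high cells the G2/M members stood at 4564, 5849, 5015 and 5455 CPM and the S-phase members at 1995, 2339, 2291 and 2279.7 CPM, so the fewer member-high cells of the antibody libraries had levels no lower than those of WT-Control. The choice of these cells uses the members, so their levels are a description.

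Members differed in how far they were confined to such cells. In WT-Control, with each member left out of its own cell call, the share of UMIs in member-high cells ran from 30% for Slbp to 79.6% for Rrm2 among the S-phase members and from 61.7% for Cks2 to 93.1% for Plk1 among the G2/M members. It was 34.6% for Pcna, 37.1% for Mcm4, 43.9% for Dut and 49.1% for Rrm1. Of the 8 S-phase members more than 2-fold lower in Cd40-/- RANKL-Ab, it was 38.7% for Ung, 47.2% for Mcm5, 54.5% for Hells, 56.5% for Uhrf1, 59.2% for Cdc45, 67.4% for Tyms, 78.5% for Pclaf and 79.6% for Rrm2. Members with a low share were thus found both among those that fell past 2-fold and among those that did not.

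**Figure D3:**
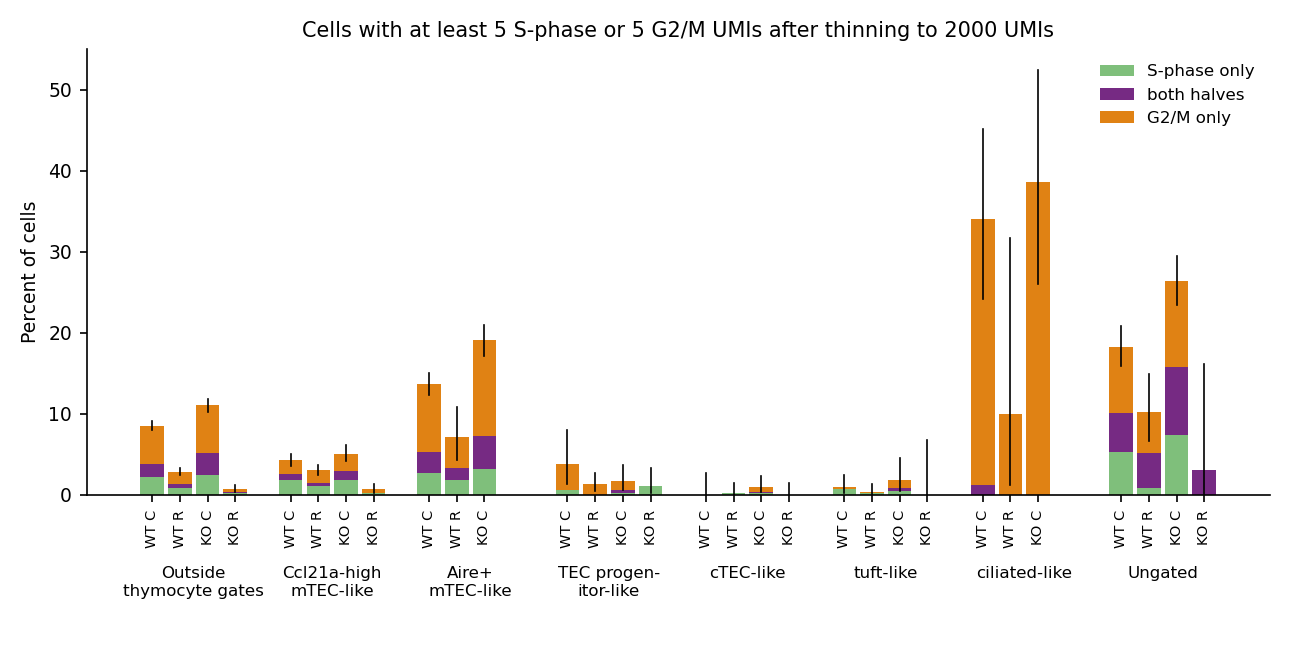
Percent of cells with at least 5 S-phase UMIs only, at least 5 of each set, or at least 5 G2/M UMIs only, after thinning each cell to 2000 UMIs, by class and library (WT C, WT-Control; WT R, WT-RANKL-Ab; KO C, Cd40-/- Control; KO R, Cd40-/- RANKL-Ab); black lines are 95% Clopper-Pearson intervals of the total. Cd40-/- RANKL-Ab is not drawn for Aire+ mTEC-like and ciliated-like cells; Aire+ mTEC-like and ungated cells reach 19.1% and 26.4% in Cd40-/- Control, and cTEC-like and tuft-like cells stay below 2%.

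The classes of the member-high cells outside the thymocyte gates differed between libraries. In WT-Control 389 of 761 were Aire+ mTEC-like (51.1%), 179 were ungated (23.5%) and 140 were Ccl21a-high mTEC-like (18.4%). In Cd40-/- Control 337 of 710 were Aire+ mTEC-like (47.5%), 225 ungated (31.7%) and 99 Ccl21a-high mTEC-like (13.9%). With the antibody, the Ccl21a-high mTEC-like cells came first, with 108 of 164 (65.9%) in WT-RANKL-Ab and 7 of 12 (58.3%) in Cd40-/- RANKL-Ab.

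Aire+ mTEC-like cells (3127, 474, 1995 and 5 cells) had S-phase members at 581 CPM in WT-Control against 277 in WT-RANKL-Ab, with 839 in Cd40-/- Control, and G2/M members at 1107, 259.7 and 1731 CPM. Both sets were lowest in WT-RANKL-Ab and highest in Cd40-/- Control. Log2 ratios to WT-Control stood at −1.07 (−1.18 to −0.96) and −2.09 (−2.21 to −1.98) for WT-RANKL-Ab, and 0.53 (0.50 to 0.56) and 0.65 (0.63 to 0.67) for Cd40-/- Control. Of the class, 27.2% of cells lay within 1.5-fold of the gate. With gates doubled the S-phase ratio of Cd40-/- Control was much smaller, as given in the closing section. More than 2-fold lower in WT-RANKL-Ab were 10 of 19 S-phase members and 22 of 22 G2/M members, against 12.5% of all genes, and the medians were −1.16, −2.12 and −0.07. With 1 CPM added, Ube2c was lowest (log2 −3.01), at 128, 15 and 168 CPM, and Slbp fell least (−0.20), at 54.6, 47.4 and 68.2 CPM. More than 2-fold higher in Cd40-/- Control were 0 of 19 S-phase and 2 of 22 G2/M members, against 0.985% of all genes: Mki67, at 47.8, 15 and 124 CPM, and Top2a, at 103, 28.0 and 222 CPM. Member-high cells were 13.7% (389 of 2848), 7.14% (19 of 266) and 19.1% (337 of 1769).

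Depth moved with this result: the median Aire+ mTEC-like cell had 11550 UMIs in WT-Control against 2469 in WT-RANKL-Ab, with 10069 in Cd40-/- Control. With a minimum of 2000 UMIs per cell, the log2 ratios of summed members in Aire+ mTEC-like cells, WT-RANKL-Ab to WT-Control, were −1.12 (S-phase) and −2.08 (G2/M), within the counting intervals. With the mean of each cell's CPM in place of the pooled level, the G2/M ratio of WT-RANKL-Ab was −1.32 and not −2.09. In Cd40-/- RANKL-Ab the class held 5 cells, of which 1 was member-high, with 20 S-phase and 377 G2/M UMIs in total, and no ratio is drawn from them.

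Ccl21a-high mTEC-like cells (3669, 3808, 2227 and 1077 cells) were numerous in each library and let the members be compared within 1 gated class. The gate need not hold the mix of cells fixed. Over all libraries, 24.2% of the class passed another gate too. Outside its member-high cells, Aire stood at 43.2, 8.64, 31.1 and 0.679 CPM. The S-phase members stood at 451 CPM in WT-Control (443 to 459), 411 in WT-RANKL-Ab (404 to 419), 509 in Cd40-/- Control (497 to 521) and 301 in Cd40-/- RANKL-Ab (289.9 to 313). The G2/M members stood at 383 (375 to 390.1), 285 (279 to 292), 491 (479.6 to 503) and 84.2 CPM (78.3 to 90.4). Cd40-/- RANKL-Ab was lowest for both sets, and WT-RANKL-Ab lay close to WT-Control. The phase balance was 54.1%, 59.1%, 50.9% and 78.2% S-phase UMIs. Within the member-high cells of the class it was 35.1%, 29.8%, 34.3% and 26.4%, the last from 7 cells. In its other cells it was 78.3%, 87.9%, 79.3% and 91.1%, and both are a description, since the members chose the cells.

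In this class the antibody in wild type went with small differences. The log2 ratios of WT-RANKL-Ab to WT-Control were −0.13 (−0.17 to −0.09) for the S-phase members and −0.42 (−0.47 to −0.38) for the G2/M members, and 0 of 41 members were more than 2-fold lower, beside 4.82% of all genes. The medians were −0.19 over the S-phase members, −0.33 over the G2/M members and 0.09 over all genes. Mcm2, Mcm4, Mcm7, Dut, Ung and Slbp of the S-phase members and Cenpf and Cenpe of the G2/M members were higher and so went against their sets. Cenpf stood at 22.1, 25.6, 31.3 and 4.22 CPM. With the mean of each cell's CPM the S-phase ratio was 0.05, which turns its direction.

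Cd40-/- Control stood a little above WT-Control in this class, with ratios of 0.17 (0.13 to 0.22) and 0.36 (0.32 to 0.40). Past 2-fold higher were 0 of 19 S-phase and 0 of 22 G2/M members, beside 2.49% of all genes. With TMM scaling the S-phase ratio was 0.00. Mcm5, Mcm6, Mcm7, Dut, Gins2, Aurka, Aurkb and Nusap1 went against their sets and were lower, whereas Mki67, at 22.9, 19.3, 43.2 and 6.22 CPM, again had the largest rise (0.92, 0.75 to 1.08).

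Cd40-/- RANKL-Ab was 4.55-fold lower than WT-Control for the G2/M members of this class (log2 −2.18, −2.29 to −2.08), and its S-phase members differed by −0.58 (−0.64 to −0.52). More than 2-fold lower were 22 of 22 G2/M members and 6 of 19 S-phase members (Mcm5, Tyms, Rrm2, Uhrf1, Pclaf and Hells), beside 9.43% of all genes. The medians were −2.00, −0.67 and 0.06. Ccna2, which S phase and mitosis both need, had the lowest G2/M ratio (−2.27 with 1 CPM added), at 10.8 CPM in WT-Control against 7.17 in WT-RANKL-Ab, with 12.7 in Cd40-/- Control against 1.44 in Cd40-/- RANKL-Ab. Cenpe had the highest (−1.22), at 11.9, 12.5, 19.8 and 4.55 CPM. Among S-phase members Pclaf was lowest (−2.74), at 36.8, 22.2, 51.1 and 4.66 CPM, and Pcna highest (0.42), at 26.1, 23.1, 32.4 and 35.3 CPM. Mcm4 and Rrm1 also went against their set, at 14.4, 16.0, 22.1 and 15.4 CPM and at 20.7, 18.7, 25.1 and 22.5 CPM.

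The 5 G2/M members with the most UMIs in WT-Control cells outside the thymocyte gates had the same order of libraries in this class. Cks2 stood at 56.5, 41.1, 67.2 and 12.5 CPM, Top2a at 39.5, 24.9, 53.3 and 8.99 CPM, and Ube2c at 35.6, 27.4, 36.0 and 8.44 CPM. Cdk1 stood at 34.6, 17.5, 37.8 and 6.77 CPM and Birc5 at 22.2, 14.3, 27.5 and 4.55 CPM, again lowest in Cd40-/- RANKL-Ab. Of the S-phase members, Dut stood at 105, 109, 104 and 72.7 CPM, Slbp at 62.8, 65.6, 74.3 and 56.6 CPM, and Tyms at 23.1, 15.8, 27.5 and 10.3 CPM.

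Against Cd40-/- Control, 21 of 22 G2/M members, all but Aurka, and 10 of 19 S-phase members of the class were more than 2-fold lower in Cd40-/- RANKL-Ab, beside 8.27% of all genes. The sums differed by −2.54 (−2.65 to −2.44) and −0.76 (−0.82 to −0.69). Against WT-RANKL-Ab, 20 of 22 and 5 of 19 (Rrm2, Uhrf1, Ung, Pclaf and Hells) were, beside 5.31%, with sums at −1.76 (−1.87 to −1.65) and −0.45 (−0.51 to −0.39). Member-high cells were 140 of 3289 in WT-Control (4.26%, 3.59 to 5.0), 108 of 3511 in WT-RANKL-Ab (3.08%, 2.53 to 3.70), 99 of 1937 in Cd40-/- Control (5.11%, 4.17 to 6.19) and 7 of 1020 in Cd40-/- RANKL-Ab (0.686%, 0.276 to 1.41). No cell of the last had both sets at the minimum, which allows a share of up to 0.294%.

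Few cells carry the last values: 5 cells held 66.0% of the G2/M UMIs of Cd40-/- RANKL-Ab in this class, against 14.2%, 17.3% and 16.4% in the other libraries. The G2/M ratio of Cd40-/- RANKL-Ab to WT-Control was −2.90 without the 5% of cells with the highest Scrublet scores and −1.44 with gates doubled, and with 10 CPM added the 28 members past 2-fold became 9.

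Member-high Ccl21a-high mTEC-like cells had less Ccl21a than the rest of the class in 3 libraries: 13694 against 25295 CPM in WT-Control, 16116 against 27147 in WT-RANKL-Ab and 11178 against 20351 in Cd40-/- Control. In Cd40-/- RANKL-Ab, with 7 such cells, the values were 36997 and 37815 CPM. Aire was higher in the member-high cells of the same 3 libraries. It stood at 76.7 against 43.2 CPM in WT-Control, 14.5 against 8.64 in WT-RANKL-Ab and 45.6 against 31.1 in Cd40-/- Control. In Cd40-/- RANKL-Ab it stood at 0 against 0.679 CPM. Member-high cells also had more UMIs, with medians of 12468 against 6531, 10647 against 6737, 10783 against 6152 and 15544 against 7752. Among the other cells of the class the S-phase members stood at 311, 321, 322 and 284 CPM and the G2/M members at 86.0, 44.2, 84.1 and 27.9 CPM. These cells were chosen by the members, so their levels are a description. In Aire+ mTEC-like cells, Aire stood at 586 CPM in member-high cells against 694 in the others in WT-Control, 607 against 482 in WT-RANKL-Ab and 609 against 748 in Cd40-/- Control.

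TEC progenitor-like cells (183, 583, 428 and 278 cells) had S-phase members at 271, 306, 333 and 342 CPM and G2/M members at 809, 367, 169 and 46.4 CPM. The S-phase shares were 25.1%, 45.5%, 66.3% and 88.1%. The G2/M UMIs of the class lay in few cells, with 5 cells holding 93.4%, 80.4%, 55.5% and 24.0% of them. Member-high were 3.77%, 1.30%, 1.71% and 1.15% of the cells, with wide intervals (1.40 to 8.03 in WT-Control and 0.239 to 3.33 in Cd40-/- RANKL-Ab). These were 6, 7, 6 and 3 cells, and the fall of the G2/M level along the 4 libraries rested on them. The other cells of the class had G2/M members at 54.4, 46.9, 75.1 and 40.2 CPM and S-phase shares of 81.7%, 86.4%, 79.4% and 88.3%, without such an order. The cells were chosen by the members, so this is a description.

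No count of members past 2-fold is given for this class, since a minimum of 20 UMIs in 2 libraries together was reached by G2/M members mainly through WT-Control (1087 G2/M UMIs against 104 in Cd40-/- RANKL-Ab). Among the members that reached it, Hmmr stood at 48.4, 15.5 and 5.51 CPM and had 65 UMIs in WT-Control against 0 in Cd40-/- RANKL-Ab, a ratio that follows the WT-Control level, so no lowest G2/M member is ranked. No highest G2/M member is ranked either, for the same reason, and Cdca8 stood at 27.5, 21.2, 11.0 and 3.57 CPM. Only 12 of 19 S-phase members reached it, some mainly through a single library, so none of them is ranked. Pclaf stood at 14.1, 5.16, 13.2 and 3.12 CPM, and Mcm2 at 4.47, 6.79, 8.91 and 9.82 CPM. The summed G2/M ratio of −4.12 (−4.43 to −3.83) was −2.04 with the mean of each cell's CPM.

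cTEC-like cells (177, 456, 664 and 304 cells) had lower S-phase levels than Ccl21a-high mTEC-like, Aire+ mTEC-like, TEC progenitor-like and tuft-like cells in the 2 wild-type libraries, at 164 and 197 CPM, beside 259 in Cd40-/- Control against 207 in Cd40-/- RANKL-Ab. Their G2/M members stood at 98.9, 50.1, 129 and 43.6 CPM. The G2/M members were lower in both antibody libraries, with ratios of −0.98 (−1.28 to −0.68) and −1.18 (−1.51 to −0.86), which became −0.29 and −0.26 with gates doubled. The S-phase ratios of the 3 other libraries to WT-Control were 0.27, 0.66 and 0.34 and turned to −0.29, −0.12 and −0.44 with gates doubled, and the G2/M ratio of Cd40-/- Control (0.39) turned under 4 settings. The further G2/M genes that are not members, of which 13 had enough UMIs, differed less. Their medians were −0.12 in WT-RANKL-Ab (8 of 13 lower) and 0.06 in Cd40-/- RANKL-Ab (6 of 13 lower), beside 0.20 and 0.25 over all genes tested. Of all genes tested, 36.5% were lower in WT-RANKL-Ab and 34.4% in Cd40-/- RANKL-Ab. Many members did not reach 20 UMIs in 2 libraries together, so none are counted past 2-fold. Among those that reached it, in Cd40-/- RANKL-Ab against WT-Control, Gins2 was the lowest S-phase member (−0.74), at 9.34, 3.21, 3.39 and 5.19 CPM, and Dut the highest (0.69), at 41.7, 74.5, 74.7 and 67.7 CPM. Only 6 of 22 G2/M members reached it, some mainly through WT-Control, so none of them is ranked. Ccnb2 (29 and 3 UMIs) stood at 15.9, 0.493, 5.09 and 0.915 CPM, and Tpx2 at 9.89, 8.39, 12.1 and 6.41 CPM. Member-high cells were 0 of 137 in WT-Control, which allows up to 2.19%, 1 of 377, 5 of 504 and 0 of 252, which allows up to 1.19%.

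Tuft-like cells (463, 621, 259 and 60 cells) had S-phase members at 268, 219, 249 and 163 CPM and G2/M members at 210.0, 109.8, 216 and 48.5 CPM, the last from 19 UMIs. The S-phase level was highest in WT-Control here and the G2/M level was lower in both antibody libraries. Member-high cells were few, at 0.962%, 0.385%, 1.81% and 0 of 52 in Cd40-/- RANKL-Ab, which allows up to 5.77%. The G2/M ratio of WT-RANKL-Ab was −0.94 (−1.11 to −0.76) and turned to 0.11 without the highest Scrublet scores, that of Cd40-/- Control was 0.04 (−0.16 to 0.23), and that of Cd40-/- RANKL-Ab went from −2.12 (−2.86 to −1.46) to −1.12. The S-phase ratio of WT-RANKL-Ab (−0.29) turned to 0.21 with gates doubled. In Cd40-/- RANKL-Ab against WT-Control, among members with at least 20 UMIs in both together, the S-phase member Pclaf had 83 against 0 UMIs, at 23.3, 4.93, 17.8 and 0 CPM, and the G2/M member Top2a 82 against 0 UMIs, at 23.1, 8.83, 37.0 and 0 CPM. Other members had 0 UMIs there too, so no lowest member is ranked. The S-phase member Mcm6 (39 against 6 UMIs) stood at 11.0, 8.05, 11.0 and 15.3 CPM. The G2/M member Cenpa (72 against 8 UMIs) stood at 20.2, 14.8, 17.1 and 20.4 CPM. Members reached the minimum mainly through WT-Control here too, so no highest member is ranked.

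Ungated cells (1192, 437, 1147 and 44 cells), which passed no gate, had S-phase members at 985 CPM in WT-Control against 667 in WT-RANKL-Ab, with 1297 in Cd40-/- Control against 616 in Cd40-/- RANKL-Ab. The first 3 were the highest of the classes outside the thymocyte gates. Their G2/M members stood at 1231, 806, 1956 and 179.6 CPM, again highest in Cd40-/- Control and lowest in Cd40-/- RANKL-Ab. The median depth of these cells differed too, at 7628, 2322, 5648 and 6300.5 UMIs. Member-high were 18.3%, 10.3%, 26.4% and 3.12% of them. In Cd40-/- RANKL-Ab this was 1 of 32 cells, which held 55.8% of the S-phase and 70.6% of the G2/M UMIs, and the other 31 had 298 and 58.9 CPM. This group depends on the gates, since 58.6% of it lay within 1.5-fold below a gate, and its G2/M ratio of WT-RANKL-Ab (−0.61) turned to 0.82 with gates halved.

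Ciliated-like cells (96, 45, 80 and 1 cells) stood apart in phase balance in the 2 control libraries, with S-phase shares of 13.8% in WT-Control (12.6 to 15.2), 37.2% in WT-RANKL-Ab (27.0 to 48.3) and 11.1% in Cd40-/- Control (9.77 to 12.6). The 1 cell of Cd40-/- RANKL-Ab had 0 member UMIs. The G2/M members stood at 2234, 372 and 2482 CPM and the S-phase members at 359, 220.5 and 310.4 CPM. G2/M members were thus above those of Aire+ mTEC-like cells in each of the 3 libraries, and member-high were 29 of 85 cells (34.1%, 24.2 to 45.2), 2 of 20 and 22 of 57 (38.6%, 26.0 to 52.4), of which 28, 2 and 22 had G2/M UMIs only at the minimum. Median depth also differed, at 8539, 1834 and 5070 UMIs. With a minimum of 2000 UMIs per cell, the log2 ratios of summed G2/M members, ciliated-like cells, to WT-Control were −2.66 (WT-RANKL-Ab) and 0.18 (Cd40-/- Control), within the counting intervals of −2.59 (−3.0 to −2.20) and 0.15 (0.06 to 0.24).

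The G2/M members were not raised evenly in these cells. Cks2 stood at 893 CPM in WT-Control against 152 in WT-RANKL-Ab, with 749 in Cd40-/- Control, Cdk1 at 231, 20.7 and 269.7 CPM, and Top2a at 164, 34.4 and 274 CPM. Mki67 stood at 30.4, 13.8 and 30.9 CPM and Ccna2 at 4.60, 0 and 1.40 CPM (5, 0 and 1 UMIs). This cyclin was below its level over all cells outside the thymocyte gates in the 2 control libraries. In WT-RANKL-Ab its 0 UMIs allow up to 25.4 CPM, so no comparison is drawn there. The other 2 cyclins were above theirs in the 2 control libraries, Ccnb1 at 56.2, 6.89 and 80.1 CPM and Ccnb2 at 35.0, 0 and 70.2 CPM, as were Cks2 and Cdk1. Genes outside the list, chosen after their values were seen, were Ccno, at 563, 62.0 and 626 CPM, Mcidas, at 160.2, 27.6 and 167 CPM, and Foxj1, a marker of the gate itself, at 468, 96.5 and 249 CPM, all known from the formation of motile cilia. Cdkn1a, an inhibitor of cyclin-dependent kinases, stood at 969, 620.1 and 1179.9 CPM. The low values of WT-RANKL-Ab for these genes went with its low G2/M level. Mki67 and the 3 cyclins were also named after their values in this class were seen.

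A further list of 40 S-phase and 46 G2/M genes that are not members was compared in cells outside the thymocyte gates. In Cd40-/- RANKL-Ab against WT-Control, 35 of 46 G2/M genes (median log2 −1.80) and 13 of 40 S-phase genes (−0.58) were more than 2-fold lower, beside 20% of all genes. Cdc25c, the phosphatase that activates Cdk1, was lowest (−3.61), at 24.0, 4.75, 24.9 and 1.04 CPM, and Pttg1, the securin, was highest (0.14), at 87.2, 104, 99.2 and 96 CPM. Clspn, a replication checkpoint adaptor, was the lowest S-phase gene (−2.00), at 8.21, 2.43, 12.5 and 1.30 CPM, and Cdca7 the highest (0.58), at 6.06, 7.99, 8.09 and 9.59 CPM.

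In WT-RANKL-Ab against WT-Control, 23 of 46 further G2/M genes (median −1.01) and 5 of 40 S-phase genes (−0.41; Mcm10, Pole, Clspn, Rad51ap1 and Dtl, named after their values were seen) were more than 2-fold lower, beside 14.2% of all genes, so the S-phase count did not exceed the share over all genes. Ncapg, a condensin subunit, was lowest (−2.21), at 16.5, 2.79, 21.1 and 0.978 CPM, and Cdc25b highest (0.27), at 12.9, 15.8, 11.2 and 9.13 CPM. Mcm10 was the lowest S-phase gene (−1.44), at 3.60, 0.697, 4.0 and 0.391 CPM, and the clamp loader subunit Rfc3 the highest (0.46), at 22.4, 31.3, 24.2 and 27.7 CPM. In Cd40-/- Control, 2 of 46 further G2/M genes (Kif11 and Kif15, the latter named after its values were seen) and 0 of 40 S-phase genes were more than 2-fold higher, beside 1.40% of all genes, and so few say little. Kif11, a spindle motor, was highest (1.03), at 7.32, 2.43, 16.0 and 0.717 CPM, and Kifc1 lowest (−0.26), at 3.85, 1.33, 3.04 and 1.24 CPM. Of the S-phase genes E2f8 was highest (0.97), at 2.59, 3.69, 6.01 and 3.85 CPM, and Chaf1b lowest (−0.21), at 4.44, 2.09, 3.72 and 1.04 CPM.

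The members lie on 16 chromosomes, with 8 on chromosome 2 and 5 each on chromosomes 5 and 11. Promoters were looked at because the G2/M members moved together. RefSeq promoters on build GRCm38.p6 were available for 17 S-phase and 19 G2/M members, as the 250 bases before each start that the table lists, and Mcm4, Gins2, Ccna2, Aurkb and Tpx2 were not in the table. The letters CCAAT, on either strand, occurred in 37.5% of 27025 genes, counting a gene with any promoter that holds them, and in 12 of 17 S-phase and 17 of 19 G2/M members, all but Birc5 and Nusap1 of the latter. The CHR letters TTTGAA or TTCGAA occurred in 19.6% of genes and in 3 of 17 S-phase members (Mcm2, Mcm7 and Cdc45) and 7 of 19 G2/M members (Mki67, Top2a, Cdk1, Ccnb2, Cdc20, Ube2c and Bub1b). CCAAT and CHR stood together in 7.0% of genes, in the same 3 of 17 S-phase members and in the same 7 of 19 G2/M members. The E2F letters TTTCCCGC, TTTCGCGC, TTTGCCGC or TTTGGCGC occurred in 2.16% of genes, in 6 of 17 S-phase members (Mcm5, Mcm6, Mcm7, Cdc6, Uhrf1 and Hells) and in 1 of 19 G2/M members (Cdk1). A match is a description of letters only.

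The 3 members of each set with the most UMIs in WT-Control that the table holds are shown, 5′ to 3′, with CCAAT and CHR letters of either strand in capitals. They lie at chr2:125247265-125247514 on the plus strand (Dut), chr9:65890073-65890322 on the plus strand (Pclaf), chr5:33652575-33652824 on the minus strand (Slbp), chr13:51644982-51645231 on the plus strand (Cks2), chr2:164769679-164769928 on the plus strand (Ube2c) and chr11:99024190-99024439 on the minus strand (Top2a). The table's start can differ from that of the gene annotation: the Dut window lies inside the annotated gene (chr2:125247190-125258608), and those of Pclaf and Ube2c reach into theirs. The Dut window has none of the letters, Pclaf has 2 CCAAT, Slbp 3 and Cks2 2, Ube2c has 6 CCAAT and 1 CHR, and Top2a has 6 CCAAT and 4 CHR.
Dut: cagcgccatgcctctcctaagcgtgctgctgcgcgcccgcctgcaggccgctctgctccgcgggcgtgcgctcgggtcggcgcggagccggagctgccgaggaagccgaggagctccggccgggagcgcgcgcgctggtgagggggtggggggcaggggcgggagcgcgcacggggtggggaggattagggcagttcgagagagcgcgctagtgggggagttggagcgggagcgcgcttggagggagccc
Pclaf: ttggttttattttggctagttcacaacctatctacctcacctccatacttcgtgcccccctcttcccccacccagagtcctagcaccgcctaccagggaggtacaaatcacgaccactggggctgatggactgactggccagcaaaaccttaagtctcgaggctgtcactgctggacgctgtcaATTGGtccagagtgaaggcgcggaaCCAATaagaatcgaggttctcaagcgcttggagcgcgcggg
Slbp: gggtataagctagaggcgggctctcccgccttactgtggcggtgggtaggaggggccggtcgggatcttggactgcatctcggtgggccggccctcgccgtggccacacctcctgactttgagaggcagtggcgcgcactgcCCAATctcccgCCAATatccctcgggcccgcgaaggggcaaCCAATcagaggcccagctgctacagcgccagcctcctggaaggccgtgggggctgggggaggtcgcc
Cks2: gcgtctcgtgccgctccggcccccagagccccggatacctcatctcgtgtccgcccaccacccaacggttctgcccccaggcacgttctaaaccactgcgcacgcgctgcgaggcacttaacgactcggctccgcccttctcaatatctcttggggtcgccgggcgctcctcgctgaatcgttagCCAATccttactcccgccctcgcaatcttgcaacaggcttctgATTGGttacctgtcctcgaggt
Ube2c: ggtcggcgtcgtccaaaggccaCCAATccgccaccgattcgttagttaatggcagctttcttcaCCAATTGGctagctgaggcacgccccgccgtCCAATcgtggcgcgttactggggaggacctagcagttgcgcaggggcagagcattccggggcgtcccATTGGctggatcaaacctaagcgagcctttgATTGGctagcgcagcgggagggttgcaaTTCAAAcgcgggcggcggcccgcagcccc
Top2a: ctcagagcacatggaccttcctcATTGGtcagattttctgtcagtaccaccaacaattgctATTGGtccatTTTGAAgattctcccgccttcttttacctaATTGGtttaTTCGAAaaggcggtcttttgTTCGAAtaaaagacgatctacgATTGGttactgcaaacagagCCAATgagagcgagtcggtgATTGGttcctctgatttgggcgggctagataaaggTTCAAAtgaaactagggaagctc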

How the data were processed

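The data were droplet single-cell RNA libraries of thymic epithelial cells, 1 per condition. The authors deposited counts: UMI counts per gene and cell barcode, which they made by trimming reads with Fastp and mapping and counting them on mm10 with Cell Ranger (5.1 per the processing notes, 5.0.1 per the file headers). The deposited matrices held 10590 (WT-Control), 7446 (WT-RANKL-Ab), 9118 (control of Cd40-/-) and 2099 (antibody in Cd40-/-) barcodes. Barcodes with fewer than 200 genes (79, 73, 178 and 4) and then those with more than 25% mitochondrial UMIs (293, 209, 349 and 13) were removed. Each cell was given the class whose summed markers stood highest over its gate, member UMIs were summed per class and library, and levels were divided by all UMIs of the same cells.

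With 1 library per condition there was no test between conditions and no replicate check. Levels have exact Poisson intervals, ratios exact conditional binomial intervals and shares Clopper-Pearson intervals, at 95% and for counting error only. Called means more than 2-fold apart with 1 CPM added, among genes with at least 20 UMIs in the 2 libraries together. For a share of 0 cells, the limit in the text is the share that 3 cells would have and not the Clopper-Pearson limit. For a level of 0 UMIs it is the upper exact Poisson limit. The scripts were tested on simulated data.

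Named genes follow a rule. Every member is covered by its role group, and values were given for the 5 members of each set with the most UMIs in WT-Control. They were also given for the highest and lowest member ratio of the Ccl21a-high mTEC-like, TEC progenitor-like, cTEC-like and tuft-like cells. No lowest one is ranked where it rests on 0 UMIs, and none where members reached the minimum mainly through a single library. Values were given as well for the highest and lowest of the further genes against WT-Control outside the thymocyte gates. Members that go against their set are named in the main classes, some without values. Ungated and ciliated-like cells have no such list, and Aire+ mTEC-like cells one for WT-RANKL-Ab. The members and lists were chosen with earlier results of these data known. Gate thresholds and the alternatives without shared barcodes and without thinning were chosen after seeing the data.

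Alternatives were TMM scaling, another denominator, the mean of each cell's CPM, the class shares of WT-Control over 4 classes, gates doubled or halved, a mitochondrial limit of 13%, a minimum of 2000 UMIs per cell, removal of the 5% highest Scrublet scores, of cells with a thymocyte marker UMI, of shared barcodes or of the member with the most UMIs in each set, other minimums, other or no thinning, 10 CPM added and 100 UMIs per gene. Work was done in Python 3.11.15 with numpy 2.4.6, pandas 2.3.3, scipy 1.17.1, scanpy 1.11.5 (Scrublet) and matplotlib 3.10.9, and in R 4.3.3 with edgeR 4.0.16.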

Additional observations from a re-analysis of the deposited data

How the results depend on the processing

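Of 2045 values under an alternative, 1334 stayed within the counting interval of the main value, 689 moved beyond it and 22 reversed. The 16 ratios to WT-Control in cells outside the thymocyte gates, Ccl21a-high and Aire+ mTEC-like cells kept their sign under 180 of 182 alternatives. Ratios of Cd40-/- RANKL-Ab to Cd40-/- Control and to WT-RANKL-Ab are not among these 16. A mitochondrial limit of 13%, a minimum of 2000 UMIs per cell, removal of shared barcodes and a minimum of 100 UMIs per gene moved none of the main values. Intervals are narrow because UMIs are many, not because libraries were repeated, and outside the thymocyte gates 5 cells carry most G2/M UMIs of Cd40-/- RANKL-Ab. Depth limits the classes of few cells, where a share of 0 allows up to 5.77% in tuft-like cells of Cd40-/- RANKL-Ab, and members near 1 CPM. The cause was not tested for any value that follows, and each ratio is the log2 ratio to WT-Control unless another library is named. With 10 CPM added, 9 members were past 2-fold lower in Ccl21a-high cells, Cd40-/- RANKL-Ab to WT-Control. 8 members were past 2-fold lower in cells outside the thymocyte gates, WT-RANKL-Ab to WT-Control. With TMM factors, in Aire+ cells the ratios became 0.53 for Cd40-/- Control in the G2/M set and 0.41 for Cd40-/- Control in the S-phase set. The ratios in Ccl21a-high cells became −0.54 for WT-RANKL-Ab and 0.19 for Cd40-/- Control in the G2/M set and −0.25 for WT-RANKL-Ab, 0.00 for Cd40-/- Control and −0.69 for Cd40-/- RANKL-Ab in the S-phase set. For cells outside the thymocyte gates the ratios became −1.66 for WT-RANKL-Ab, 0.36 for Cd40-/- Control and −3.15 for Cd40-/- RANKL-Ab in the G2/M set and −0.67 for WT-RANKL-Ab, 0.25 for Cd40-/- Control and −0.96 for Cd40-/- RANKL-Ab in the S-phase set. Reversed were S-phase and G2/M in ciliated-like cells −0.02 for Cd40-/- Control. Over the 4 classes with at least 50 cells in each library and with the class shares of WT-Control, in place of all cells outside the thymocyte gates, the ratios became −0.51 for WT-RANKL-Ab, 0.23 for Cd40-/- Control and −2.25 for Cd40-/- RANKL-Ab in the G2/M set (−0.55, 0.00 and −2.42 over the 4 classes as found) and −0.12 for WT-RANKL-Ab, 0.17 for Cd40-/- Control and −0.53 for Cd40-/- RANKL-Ab in the S-phase set. Reversed were S-phase and G2/M in all cells −0.73 for Cd40-/- RANKL-Ab to WT-RANKL-Ab. With a denominator without Ccl21a, mitochondrial and ribosomal protein genes, the ratio in Aire+ cells became 0.62 for Cd40-/- Control in the G2/M set. For Ccl21a-high cells the ratios became 0.27 for Cd40-/- Control in the G2/M set and 0.09 for Cd40-/- Control in the S-phase set. In cells outside the thymocyte gates the ratios became −1.56 for WT-RANKL-Ab and 0.45 for Cd40-/- Control in the G2/M set and −0.57 for WT-RANKL-Ab and 0.33 for Cd40-/- Control in the S-phase set. With gates doubled, the S-phase share of member UMIs in Ccl21a-high cells became 62.2% for WT-Control, 65.1% for WT-RANKL-Ab and 53.6% for Cd40-/- Control. The S-phase share of member UMIs in cells outside the thymocyte gates became 71.8% for Cd40-/- RANKL-Ab. The ratios in Aire+ cells became −1.66 for WT-RANKL-Ab in the G2/M set and −0.63 for WT-RANKL-Ab and 0.07 for Cd40-/- Control in the S-phase set. For Ccl21a-high cells the ratios became −0.23 for WT-RANKL-Ab, 0.53 for Cd40-/- Control and −1.44 for Cd40-/- RANKL-Ab in the G2/M set and −0.05 for WT-RANKL-Ab, 0.02 for Cd40-/- Control and −0.42 for Cd40-/- RANKL-Ab in the S-phase set. In cells outside the thymocyte gates the ratio became −2.75 for Cd40-/- RANKL-Ab in the G2/M set. Reversed were S-phase in cTEC-like cells −0.29 for WT-RANKL-Ab, −0.12 for Cd40-/- Control and −0.44 for Cd40-/- RANKL-Ab and S-phase in tuft-like cells 0.21 for WT-RANKL-Ab. With gates halved, the S-phase share of member UMIs in Ccl21a-high cells became 52.9% for WT-Control. The ratios in Aire+ cells became −1.52 for WT-RANKL-Ab and 0.70 for Cd40-/- Control in the G2/M set and −0.72 for WT-RANKL-Ab in the S-phase set. For Ccl21a-high cells the ratios became −0.54 for WT-RANKL-Ab and −2.32 for Cd40-/- RANKL-Ab in the G2/M set and −0.18 for WT-RANKL-Ab and 0.25 for Cd40-/- Control in the S-phase set. Reversed were G2/M in cTEC-like cells −0.07 for Cd40-/- Control, G2/M in ungated cells 0.82 for WT-RANKL-Ab and S-phase and G2/M in ungated cells 0.29 for WT-RANKL-Ab. With the mean of each cell's CPM, in Aire+ cells the ratios became −1.32 for WT-RANKL-Ab and 0.60 for Cd40-/- Control in the G2/M set and −0.58 for WT-RANKL-Ab and 0.37 for Cd40-/- Control in the S-phase set. The ratios in Ccl21a-high cells became −0.19 for WT-RANKL-Ab, 0.47 for Cd40-/- Control and −1.99 for Cd40-/- RANKL-Ab in the G2/M set and −0.30 for Cd40-/- RANKL-Ab in the S-phase set. For cells outside the thymocyte gates the ratios became −1.15 for WT-RANKL-Ab, 0.38 for Cd40-/- Control and −2.62 for Cd40-/- RANKL-Ab in the G2/M set and −0.23 for WT-RANKL-Ab, 0.22 for Cd40-/- Control and −0.45 for Cd40-/- RANKL-Ab in the S-phase set. Reversed were G2/M in cTEC-like cells −0.29 for Cd40-/- Control, G2/M in thymocyte-like cells −0.58 for Cd40-/- RANKL-Ab, S-phase and G2/M in all cells −0.13 for Cd40-/- RANKL-Ab to WT-RANKL-Ab, S-phase and G2/M in thymocyte-like cells −0.29 for Cd40-/- RANKL-Ab, S-phase in Ccl21a-high cells 0.05 for WT-RANKL-Ab, S-phase in cTEC-like cells 0.01 for Cd40-/- RANKL-Ab to Cd40-/- Control and S-phase in tuft-like cells 0.05 for WT-RANKL-Ab. With a minimum of 10 UMIs, the share of member-high cells in cells outside the thymocyte gates became 3.91% for WT-Control, 1.60% for WT-RANKL-Ab and 6.02% for Cd40-/- Control. With a minimum of 3 UMIs, the share of member-high cells in cells outside the thymocyte gates became 12.2% for WT-Control, 5.76% for WT-RANKL-Ab, 15.3% for Cd40-/- Control and 2.51% for Cd40-/- RANKL-Ab. With thinning to 1000 UMIs and a minimum of 3, the share of member-high cells in cells outside the thymocyte gates became 7.68% for WT-Control and 9.84% for Cd40-/- Control. Without cells that hold a thymocyte marker UMI, the S-phase share of member UMIs in Ccl21a-high cells became 55.5% for WT-Control, 62.8% for WT-RANKL-Ab and 48.7% for Cd40-/- Control. The S-phase share of member UMIs in cells outside the thymocyte gates became 40.8% for WT-Control, 59.1% for WT-RANKL-Ab, 37.9% for Cd40-/- Control and 71.7% for Cd40-/- RANKL-Ab. In Ccl21a-high cells the ratios became −0.61 for WT-RANKL-Ab, 0.47 for Cd40-/- Control and −2.07 for Cd40-/- RANKL-Ab in the G2/M set and 0.08 for Cd40-/- Control in the S-phase set. The ratios in cells outside the thymocyte gates became −1.70 for WT-RANKL-Ab and −2.75 for Cd40-/- RANKL-Ab in the G2/M set and −0.63 for WT-RANKL-Ab and 0.32 for Cd40-/- Control in the S-phase set. Reversed were G2/M in cTEC-like cells −0.01 for Cd40-/- Control, S-phase and G2/M in all cells −0.51 for Cd40-/- RANKL-Ab to WT-RANKL-Ab and S-phase in TEC progenitor-like cells −0.07 for Cd40-/- RANKL-Ab to WT-RANKL-Ab. Without the 5% highest Scrublet scores, the S-phase share of member UMIs in Ccl21a-high cells became 55.6% for WT-Control, 58.2% for WT-RANKL-Ab, 52.7% for Cd40-/- Control and 86.5% for Cd40-/- RANKL-Ab. The S-phase share of member UMIs in cells outside the thymocyte gates became 39.7% for WT-Control, 56.0% for WT-RANKL-Ab, 37.8% for Cd40-/- Control and 79.7% for Cd40-/- RANKL-Ab. For Ccl21a-high cells the ratios became −0.21 for WT-RANKL-Ab and −2.90 for Cd40-/- RANKL-Ab in the G2/M set and −0.06 for WT-RANKL-Ab in the S-phase set. In cells outside the thymocyte gates the ratios became −1.45 for WT-RANKL-Ab and −3.47 for Cd40-/- RANKL-Ab in the G2/M set. Reversed were G2/M in cTEC-like cells −0.32 for Cd40-/- Control, G2/M in tuft-like cells 0.11 for WT-RANKL-Ab and S-phase and G2/M in tuft-like cells 0.02 for WT-RANKL-Ab. Without the member with the most UMIs in each set, the S-phase share of member UMIs in Ccl21a-high cells became 51.5% for WT-Control, 55.3% for WT-RANKL-Ab, 48.8% for Cd40-/- Control and 76.1% for Cd40-/- RANKL-Ab. The S-phase share of member UMIs in cells outside the thymocyte gates became 37.7% for WT-Control, 53.7% for WT-RANKL-Ab, 35.4% for Cd40-/- Control and 72.7% for Cd40-/- RANKL-Ab. The ratios in Aire+ cells became −2.23 for WT-RANKL-Ab in the G2/M set and −1.20 for WT-RANKL-Ab in the S-phase set. For cells outside the thymocyte gates the ratios became 0.54 for Cd40-/- Control in the G2/M set and −0.60 for WT-RANKL-Ab in the S-phase set. In Ccl21a-high cells the ratios became −0.19 for WT-RANKL-Ab and 0.23 for Cd40-/- Control in the S-phase set. Without thinning, in cells with at least 2000 UMIs, the share of member-high cells in cells outside the thymocyte gates became 24.2% for WT-Control, 13.3% for WT-RANKL-Ab, 23.8% for Cd40-/- Control and 15.4% for Cd40-/- RANKL-Ab.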
